A study of Mus musculus with 16 samples.

Results

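Fasn, Acaca, Acacb, Scd1, Acly, Srebf1, Elovl6, Cebpa, Cebpb and Cebpd were followed as one set: 6 enzymes of fatty acid synthesis, the lipogenic transcription factor Srebf1, and 3 C/EBP transcription factors. Members were all non-control probes that the array files assign to one of these 10 gene names, whatever their values, and they came to 15 of 55681 probe names. Each array held labelled RNA from the gastrocnemius, a calf muscle, of 1 mouse. The mice were wild type (WT) or carried 1 functional copy of Eif6 (Eif6 heterozygous, Het). Eif6 encodes a translation initiation factor that binds the large ribosomal subunit. The Het allele was present in the whole animal and not in muscle fibres alone, and the mice were 8 to 16 weeks old, ate chow freely and received no treatment. Whole-muscle RNA and polysome RNA, meaning pooled sucrose gradient fractions of transcripts that carry several ribosomes, were measured in 3 WT and 3 Het mice. Monosome RNA, from fractions with single ribosomes, was measured in 2 WT mice (replicates 1 and 2) and 2 Het mice (replicates 1 and 3), which makes 16 arrays in 6 groups. The comparisons ask whether the level of each transcript, or its share on polysomes, differed between genotypes.

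In lipogenic tissues, ATP citrate lyase (Acly) makes cytosolic acetyl-CoA, the acetyl-CoA carboxylases (Acaca and Acacb) turn it into malonyl-CoA, and fatty acid synthase (Fasn) builds palmitate from both. Elovl6 lengthens the chain, Scd1 adds a double bond, and SREBP-1, the product of Srebf1, drives transcription of these enzymes. Acacb is the carboxylase of muscle, where its malonyl-CoA limits the entry of fatty acids into mitochondria. The C/EBP factors are known from adipocyte differentiation, in which Cebpb and Cebpd act early and Cebpa later, and from acute phase, stress and metabolic responses. Muscle samples also hold adipocytes, blood and immune cells, and in bulk tissue fewer cells of a type and less RNA per cell cannot be told apart.

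The array probes are 60 bases long. For Acaca and Acly signal was seen by probes at 1 end of the transcript and hardly at all by those upstream, so sequences from both places are shown first, in mm9 coordinates with their strand. The lines below give the last 30 bases of the bright probes at the ends of the transcripts of Acaca, Acly, Acacb and Cebpb. Capitals mark a polyadenylation signal hexamer, AATAAA or ATTAAA, searched on the probe strand first.
Acaca, chr11:84215123-84215152, plus strand: tgttgaAATAAAcctccacatttgtagaag
Acaca, second probe at the same end, chr11:84215124-84215153, plus strand: gttgaAATAAAcctccacatttgtaaaaaa
Acly, chr11:100337674-100337703, minus strand: tcatgtttgctttaAATAAActagatagta
Acacb, chr5:114700732-114700761, plus strand: ctgaaagagctgcaaAATAAActatttttt
Cebpb, chr2:167515858-167515887, plus strand: ccgtttcgagcATTAAAgtgaagacatttt

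The hexamer was found in 5 of 15 member probes (33.3%), against 13.7% of all 55681 probes. Among tested probes it was found in 5 of 11 member probes (45.5%), against 18.1% of all 19814. Counting both strands, 40% of member probes and 18.6% of all probes held it. A match describes the letters of the probe and not a used cleavage site, and it does not part bright from dark probes: those of Scd1 and Cebpd and the second Acacb probe were well above background on all 16 arrays and hold no hexamer. The pair of Acaca probes above is shifted by 1 base and matches at 57 of 59 shared positions, so they measure the same stretch and are not independent readings. A further 3 probes lie upstream in Acaca and Acly and hold no such hexamer. They are given whole because they were dark or nearly dark.
Acaca, transcript position 81, chr11:84009021-84009080, plus strand: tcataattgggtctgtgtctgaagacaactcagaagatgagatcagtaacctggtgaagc
Acaca, transcript position 6880, chr11:84211638-84211697, plus strand: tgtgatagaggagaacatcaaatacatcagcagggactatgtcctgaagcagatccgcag
Acly, transcript position 1597, chr11:100365518-100365577, minus strand: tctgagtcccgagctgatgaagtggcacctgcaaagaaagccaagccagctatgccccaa

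Both upstream Acaca probes were not well above background on any of the 16 arrays, whereas both probes at the end of the transcript were well above background on all 16. The upstream Acly probe was well above background on 2 arrays, WT polysome replicates 2 and 3, and its brighter partner at transcript position 4359 on all 16. Whether probe chemistry, transcript ends or RNA integrity set this was not tested. Cy3 labelling starts from the transcript end, and in 1171 transcripts with probes at least 500 bases apart the upstream probe had a lower median log2 signal than the downstream one on 14 of 16 arrays (-1.34 to -0.79). On the other 2 arrays the sign was turned: 0.59 on WT polysome replicate 2 and 0.83 on WT monosome replicate 2. These arrays came from the same mouse by their labels. The upstream Acaca probe at position 81 read 4.17 on WT polysome replicate 2, its highest value but still not well above background, and the one at position 6880 stayed at 1.68 there. On that array the Acaca probe at position 8971 had its lowest value, 7.19. The upstream Acly probe likewise peaked on that array at 5.31, where the downstream Acly probe was lowest at 6.98.

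**Figure D1:**
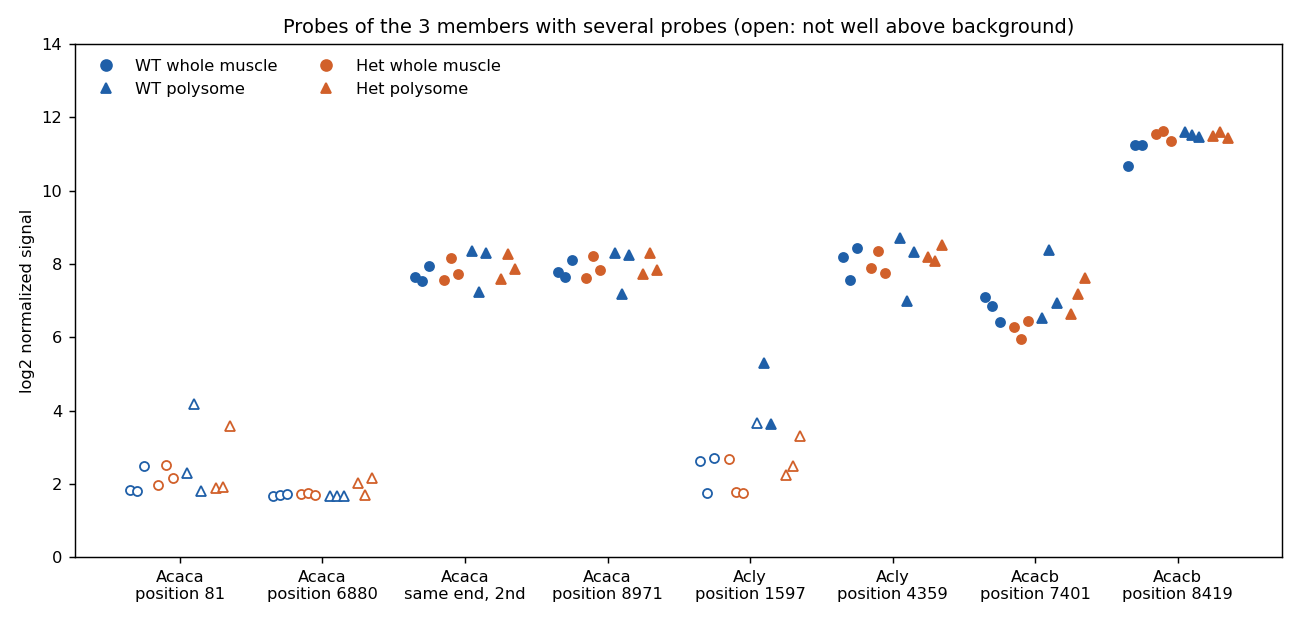
Quantile-normalized log2 signal of 8 probes of Acaca, Acly and Acacb on the 12 whole-muscle and polysome arrays, 1 point an array, coloured by genotype with circles for whole muscle and triangles for polysomes, and with open points where the probe was not well above background. Positions count bases of the named transcript, and levels should be compared between groups within a probe, not between probes; the upstream Acaca and Acly probes sit near the floor on most arrays, while their partners at the transcript end lie between 6.98 and 8.72.

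The labels and arrays were checked before the members were compared. Eif6 itself was lower on every Het array than on every WT array of the same RNA kind, from 9.27 to 9.93 in WT against 8.54 to 8.70 in Het whole muscle and from 10.2 to 10.99 against 9.15 to 9.41 in polysomes (log2 signal of the brighter of 2 probes). Its limma differences were -0.91 (adjusted p = 0.379) and -1.31 (adjusted p = 0.192). All 14 skeletal muscle markers were detected on each of the 12 whole-muscle and polysome arrays, with a summed log2 signal of 20.2 to 20.4, a sum carried by the brightest of them (single markers that passed a test are given beside the comparison). Array brightness, the 75th percentile of the processed signal, ran from 42.3 to 150 in WT whole muscle and from 13.5 to 33.0 in Het whole muscle, so that brightness and genotype moved together there. In polysomes it ran from 24.1 to 66.1 in WT and from 63.1 to 106 in Het. The arrays lay on 2 slides, and no mouse had its whole-muscle and polysome arrays on the same slide. WT polysome replicate 2 was the lowest of the 3 WT polysome arrays for 8 of the 9 members tested (88.9%), against 42.4% of all probes tested. Values without this mouse are given beside many of the results below. Nothing in the labels separates technical from biological replication beyond the mouse number. For ratios within a mouse, each limma p-value rests on the spread of the ratios between these mice. For comparisons of groups the spread was shared over all groups of the fit, and the arrays of a mouse entered separately. A whole-muscle limma p-value or interval therefore also carries the spread of the polysome arrays, WT polysome replicate 2 among them.

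Of the 10 genes, 9 had at least 1 probe above background throughout some group (well above it on all arrays of that group), and 11 of the 15 probes passed. That filter also admits a probe that is high in 1 group alone. Each gene is given by its brightest tested probe, on the scale of 12 arrays without monosomes. The exception was Fasn, which was not tested: its single probe (chr11:120667666-120667725) was well above background on 6 of 16 arrays, namely 1 WT and 1 Het whole-muscle array, 2 WT and 2 Het polysome arrays and no monosome array. Its log2 signals were 4.40, 3.13 and 4.21 in WT whole muscle, 4.76, 4.66 and 4.0 in Het whole muscle, 3.82, 4.12 and 4.39 in WT polysomes, and 2.62, 4.51 and 4.25 in Het polysomes (replicates 1, 2 and 3 in this and all later lists). The groups overlapped in both RNA kinds, and 6 of these 12 values were not well above background, so no order was read from them.

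The precursor enzymes came first. Acly, whose product feeds the pathway, read 8.18, 7.56 and 8.44 in WT whole muscle, 7.89, 8.35 and 7.75 in Het whole muscle, 8.72, 6.98 and 8.34 in WT polysomes, and 8.20, 8.08 and 8.52 in Het polysomes. Acaca, the carboxylase of lipogenic tissues, read 7.79, 7.65 and 8.11 in WT whole muscle, 7.63, 8.23 and 7.83 in Het whole muscle, 8.29, 7.19 and 8.24 in WT polysomes, and 7.73, 8.31 and 7.85 in Het polysomes. For both genes the WT and Het ranges overlapped in each RNA kind, and WT polysome replicate 2 was the lowest of the 12 arrays. The Acaca group means differed by no more than 0.11 on the log2 scale, from 7.85 ± 0.23 (SD, n = 3) in WT whole muscle to 7.96 ± 0.30 in Het polysomes.

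Acacb, the muscle carboxylase, was the member with the least spread in polysomes. Its brighter probe (transcript position 8419) read 10.67, 11.25 and 11.25 in WT whole muscle and 11.53, 11.64 and 11.34 in Het whole muscle, with every Het array above every WT array. In polysomes it read 11.61, 11.52 and 11.45 in WT and 11.48, 11.61 and 11.45 in Het, an overlap of nearly the whole range. The second Acacb probe, at position 7401, gave the opposite order in whole muscle: 7.09, 6.84 and 6.42 in WT against 6.27, 5.96 and 6.44 in Het, with overlapping ranges. The genotype difference in whole muscle was therefore positive by the brighter probe (0.45 ± 0.21 SE) and negative by the other (-0.56 ± 0.44), and no direction can be given for the gene. By the brighter probe it was 0.25 without WT replicate 1 and 0.18 with array brightness as a term.

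Among the enzymes that modify palmitate, Scd1 (stearoyl-CoA desaturase) read 9.14, 7.79 and 8.95 in WT whole muscle, 7.99, 9.33 and 8.98 in Het whole muscle, 7.80, 7.28 and 8.18 in WT polysomes, and 7.67, 8.63 and 9.08 in Het polysomes. The genotypes overlapped in both RNA kinds, and the 3 WT polysome arrays were the lowest group by mean, 7.75 ± 0.46. Elovl6 (the elongase of palmitate) was dim. It read 3.79, 3.69 and 3.70 in WT whole muscle and 3.58, 3.12 and 4.26 in Het whole muscle, where no array was well above background. In polysomes it read 4.44, 3.30 and 3.80 in WT and 3.71, 4.70 and 3.97 in Het, again with overlap.

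Srebf1 was likewise dim in whole muscle, reading 4.40, 4.72 and 4.03 in WT and 4.14, 2.03 and 4.12 in Het. It was well above background on 2 WT whole-muscle arrays and on no Het one, while all 3 Het polysome arrays passed, at 4.83, 5.54 and 4.79, beside 4.51, 4.11 and 5.22 in WT polysomes. For a bound on the means, each Het whole-muscle array was set to its own Srebf1 signal or to the lowest signal well above background there, whichever was higher. The WT whole-muscle mean was then 1.14-fold higher. The fitted difference was -0.95 (limma adjusted p = 0.671) and lay between -1.30 and -0.25 when a mouse was left out. The measured ranges overlapped, since WT replicate 3 lay below Het replicates 1 and 3, and with array brightness as a term the difference turned to 0.14, so no direction can be given. The low Het reading of 2.03 came from replicate 2, the dimmest array of the 16 but for WT monosome replicate 2.

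The C/EBP factors differed in brightness and in how their levels followed the RNA kinds. Cebpb read 9.52, 9.18 and 9.43 in WT whole muscle and 9.85, 9.36 and 9.64 in Het whole muscle, against 10.78, 9.78 and 10.69 in WT polysomes and 10.65, 9.97 and 10.48 in Het polysomes. Every polysome array lay above every whole-muscle array of its own genotype, and the genotypes overlapped in both RNA kinds. Cebpd read 8.76, 8.85 and 9.77 in WT whole muscle, 9.15, 9.10 and 9.09 in Het whole muscle, 9.60, 9.0 and 9.94 in WT polysomes, and 9.71, 9.14 and 10.20 in Het polysomes, with overlap throughout.

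Cebpa, the late adipogenic factor, read 5.93, 4.0 and 4.53 in WT whole muscle and 4.13, 5.34 and 2.03 in Het whole muscle. All 3 WT arrays and no Het array were well above background. The Het arrays were also the dimmer ones (brightness 13.5 to 33.0 against 42.3 to 150), and whether this set the split was not tested. By the bound used for Srebf1 the WT mean was 1.18-fold higher, and the fitted difference was -0.99 (limma adjusted p = 0.774). The measured ranges overlapped, with Het replicate 2 above WT replicates 2 and 3, and without Het replicate 3 the fitted difference was -0.089, which is smaller than that bound, so no direction can be given. In polysomes Cebpa was steady, at 5.32, 5.26 and 5.45 in WT and 4.94, 5.32 and 5.10 in Het, with overlapping ranges.

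**Figure D2:**
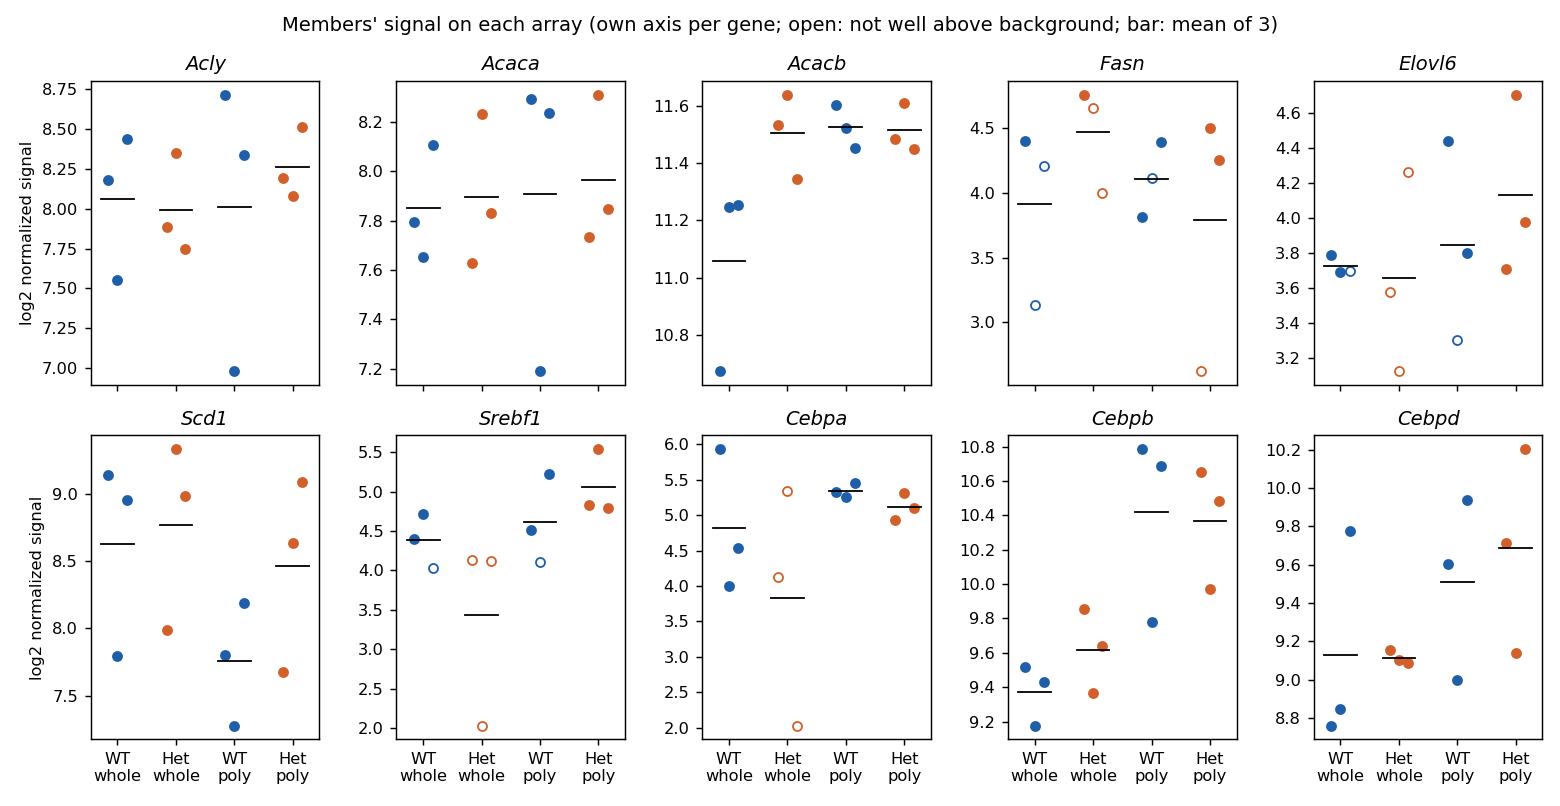
Quantile-normalized log2 signal of the 10 genes on the 12 whole-muscle and polysome arrays, 1 panel a gene and 1 point a mouse; bars are the mean of 3 mice and open points mark arrays where the probe was not well above background. Cebpb is the gene whose polysome points stand above its whole-muscle points in both genotypes (means 10.42 and 10.37 against 9.37 and 9.62).

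Taking all 10 genes, each with its 4 groups ordered by mean, 2 of 30 neighbouring pairs of groups had ranges that did not overlap: Het over WT whole muscle for Acacb, and Het polysomes over Het whole muscle for Cebpb. Over all probes tested, 5.35% were higher in Het whole muscle without overlap. No such share was computed for polysomes over whole muscle, so the count describes these genes and nothing is read from it. Pairs further apart in the order were not counted, and some of them did not overlap either, as for Srebf1, whose Het polysome arrays all lay above both whole-muscle groups. Levels of different genes were not set against each other, since probes differ in brightness for the same amount of RNA.

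No member passed the threshold for a genotype difference in whole muscle. The threshold used here was an absolute log2 difference above 1 with an unadjusted limma p under 0.05, and 5.54% of the 19814 probes passed it. 4 members were higher and 5 lower in Het, 0 had an unadjusted p under 0.05 (8.3% of all probes), and the methods' t-test also called 0. The median difference of the 9 members was -0.0128, beside -0.0184 over all probes, and without WT replicate 2 it was -0.15 with 2 higher and 7 lower. Acacb was the 1 member whose groups did not overlap (exact permutation p = 0.10, the smallest that 3 against 3 mice allow), and 5.35% of all probes were higher in Het without overlap. Its limma adjusted p was 0.612, with a 95% interval of -0.02 to 0.91. The intervals of Cebpb (-0.42 to 0.90), Cebpd (-0.79 to 0.77) and Acaca (-0.66 to 0.75) stayed inside a change of 1 on the log2 scale. Those of Srebf1 (-2.11 to 0.21), Cebpa (-2.53 to 0.55) and Scd1 did not. Without Het replicate 2, Cebpa passed the threshold (-1.74, limma adjusted p = 0.745, beside 4.95% of all probes), and without Het replicate 3 it stood at -0.089, so its value rests on single mice. Myeloid cell markers were lower in Het here too, in 8 of 9 tested genes with a median of -1.35, and S100a9 (-4.09), Lyz2 (-2.68) and Lgals3 (-2.22) passed. Without WT replicate 2, 6 of 9 passed with a median of -2.42, beside 9.75% of all probes. The summed myeloid level was 11.5 to 13.01 in WT and 11.5 to 11.8 in Het. Of 7 red blood cell markers Hbb-b1 (-1.60) passed, while 5 were higher in Het. Of 10 immediate early genes Egr1 (-1.70) and Fosb (1.23) passed, and Egr1 (-1.04) did not without that mouse. The part of these markers in the members' values was not tested.

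In polysome RNA no member passed either, beside 5.67% of all probes. 6 members were higher and 3 lower in Het, with a median of 0.17 against 0.04 over all probes, 0 with an unadjusted p under 0.05 (15.2% of all probes), and 0 called by the methods' t-test. The tally turned over without WT replicate 2, to 3 higher and 6 lower with a median of -0.082, and the filter admitted Srebf1 and Elovl6 through the Het polysome arrays alone, so nothing is read from it. Scd1 had the largest difference, 0.71 ± 0.49 (SE), with a 95% interval of -0.36 to 1.78 and an adjusted p of 0.470. Acacb was narrowest, at -0.01 with an interval of -0.47 to 0.45, and Cebpb stood at -0.05 (-0.71 to 0.61). Without Het replicate 1, Scd1 passed (1.10, limma adjusted p = 0.540, beside 4.93% of all probes), and without Het replicate 3 its difference was 0.40. 0 members had groups without overlap in polysomes, beside 13.2% of all probes upwards and 8.71% downwards. Myeloid cell markers were lower in Het by a median of 0.99 on the log2 scale in the same arrays (9 of 9 tested genes lower), with summed levels of 11.7 to 13.4 in WT and 10.7 to 11.6 in Het. Red blood cell markers were lower too, in 7 of 7 genes with a median of -1.14 and summed levels of 16.7 to 17.9 in WT against 15.7 to 16.2 in Het, and 4 of them passed: Hba-a2 (-1.42), Alas2 (-1.40), Hba-a1 (-1.28) and Hbb-b2 (-1.14). When WT replicate 2 was left out, the red blood cell median was -0.59 with 2 of 7 past the threshold (Hba-a1 and Hbb-b2 no longer passed), and the myeloid median was -1.41 with 7 of 9, against 1 of 9 (Lgals3) with all mice. Of all probes 4.23% then passed. Of the skeletal muscle markers Atp2a1 (1.61) passed, and Mylpf (1.60), Ckm (1.34) and Des (1.03) joined it without that mouse. The part of blood, immune and muscle fibre RNA in any member's value was not tested.

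Polysome loading was the log2 ratio of polysome to whole-muscle signal within a mouse, and was compared between genotypes. No member passed, beside 13.8% of all probes, 0 had an unadjusted p under 0.05 (16.8% of all probes), and 0 were called by the methods' t-test. 7 members were higher and 2 lower in Het, with a median of 0.32 beside 0.15 over all probes. Without WT replicate 2 it was 6 and 3 with a median of 0.071, beside 0.074 over all probes, and Srebf1 and Elovl6 were admitted by their Het polysome signal, so nothing is read from this tally. Markers of cell types moved in the same comparison: of 14 skeletal muscle markers Atp2a1 (2.78), Ckm (1.70), Des (1.503) and Acta1 (1.10) passed upwards, of 7 red blood cell markers Hba-a2 (-1.64), Alas2 (-1.48) and Hba-a1 (-1.41) downwards, and of 9 adipocyte markers Plin1 (-1.17) downwards. Of 10 immediate early genes Atf3 (2.85) passed upwards and Fosb (-2.24) downwards, and both also passed without WT replicate 2. Leaving out WT replicate 2, Alas2 (-0.77) and Hba-a1 (-0.96) no longer passed, whereas Hbb-b1 (1.96), Lyz2 (2.51) and Mylpf (2.07) passed upwards, beside 14% of all probes that passed in either direction. Their part in the members' loading was not tested. Adjusted over the whole table, the members' p-values ran from 0.444 to 0.989. No probe of the 19814 (0%) reached an adjusted p under 0.05.

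Scd1 loading was -1.34, -0.52 and -0.77 in WT mice and -0.31, -0.70 and 0.10 in Het mice. Only Het replicate 2 fell within the WT range, and the difference of 0.57 ± 0.36 (SE) had a 95% interval of -0.28 to 1.43. Srebf1 loading was 0.12, -0.60 and 1.19 in WT and 0.70, 3.51 and 0.67 in Het. The high ratio of Het replicate 2 rests on its whole-muscle array, where Srebf1 was not well above background, and the difference of 1.39 ± 0.86 had an interval of -0.60 to 3.39.

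Acacb loading was 0.93, 0.27 and 0.20 in WT and -0.05, -0.03 and 0.11 in Het, so that every Het mouse lay below every WT mouse (exact permutation p = 0.10, the smallest possible). 12.3% of all probes were lower in Het without overlap, the limma adjusted p was 0.491, and the second Acacb probe had the opposite sign (0.44). The brighter probe's difference of -0.46 was -0.23 without WT replicate 1 and -0.086 with array brightness as a term. The whole-muscle difference of Acacb enters this ratio, so the pair of non-overlaps is 1 observation and not 2.

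Cebpb loading was 1.27, 0.60 and 1.26 in WT and 0.80, 0.61 and 0.84 in Het, all above 0, with a difference of -0.29 ± 0.31 (95% interval -1.03 to 0.45). Acaca differed by 0.01 (-0.78 to 0.80) and Cebpd by 0.19 (-0.73 to 1.10). Without WT replicate 2, whose loading was the lowest of the WT mice for Acaca, Acly, Cebpb and Srebf1 among others, the differences were -0.25 for Acaca, 0.052 for Acly (0.32 with all mice), -0.51 for Cebpb, 0.75 for Scd1 and 0.97 for Srebf1. No member passed the threshold without that mouse. With array brightness as a term of the fit the Srebf1 difference turned to -1.43, and within slide 1, where whole-muscle and polysome arrays come from different mice, that of Scd1 was -0.07.

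**Figure D3:**
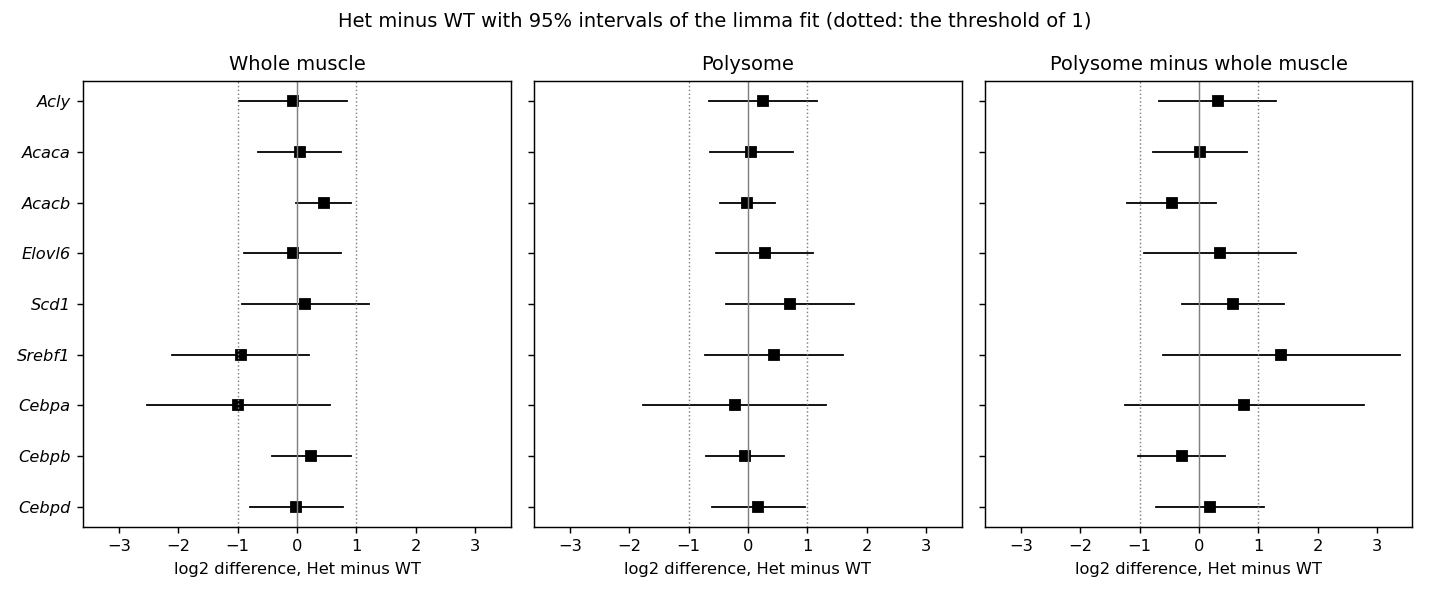
Fitted Het minus WT differences (log2) of the 9 tested members in whole muscle, in polysomes and in polysome loading (polysome minus whole muscle), with 95% intervals from limma. Every interval crosses 0; those of Srebf1 and Cebpa are the widest and that of Acacb in whole muscle, -0.02 to 0.91, comes nearest to leaving 0 out.

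Within WT mice, Cebpb was the 1 member that passed the call for a difference between polysomes and whole muscle. It rose on polysomes by 1.04 ± 0.22 (SE) on the log2 scale, 2.06-fold, in 3 of 3 mice (limma adjusted p = 0.022, 95% interval 0.52 to 1.57). The call asked for an absolute mean ratio above 1 and an adjusted p under 0.05, which 15.8% of all probes met and 6.73% met upwards. In Het mice the ratio of Cebpb was 0.75 ± 0.22, or 1.68-fold, again above 0 in 3 of 3 mice, with an adjusted p of 0.083 and an interval of 0.23 to 1.27. It did not pass there, and the difference between genotypes is the -0.29 given above, which was not significant. The estimate in WT sits close to the cutoff of 1. It fell to 0.97 with 75th percentile scaling and to 0.98 with another background correction, both with an adjusted p under 0.05, and without WT replicate 1 or 3 it was 0.93 or 0.94 with adjusted p of 0.074 and 0.096. Without WT replicate 2 it was 1.26 (adjusted p = 0.017).

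Scd1 lay on the other side in WT mice. Its polysome signal was below its whole-muscle signal in 3 of 3 mice, by -0.88 ± 0.26 (0.545-fold, 95% interval -1.48 to -0.27). Both this size and the limma adjusted p of 0.051 missed the threshold. The adjusted p was under 0.05 in 5 of 18 alternatives, and 0 passed on size and p together. In Het mice the Scd1 ratio was -0.30 (-0.91 to 0.30), with 1 of 3 mice above 0, and ran from -0.51 to -0.11 when a mouse was left out. No member passed in Het mice, beside 6.49% of all probes, while 2 members (Cebpb and Srebf1) had an unadjusted p under 0.05, beside 28.9%. Srebf1 stood at 1.63 (0.22 to 3.04, adjusted p = 0.130) and Cebpa at 1.29 (-0.14 to 2.71). Both values rest on single mice, since they ran from 0.68 (without Het replicate 2) to 2.10 for Srebf1 and from 0.40 (without Het replicate 3) to 1.94 for Cebpa when a mouse was left out. Neither gene was well above background in Het whole muscle. By the bound used above, their mean polysome signal over the 3 mice was 1.82-fold and 1.45-fold above it. Neither figure is a floor, since both rest on the same single mice, and Cebpa had a log2 ratio of -0.018 in Het replicate 2. Srebf1 entered the test only because all 3 Het polysome arrays were well above background, so its unadjusted p and its bound describe the group that admitted it and support nothing.

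The median polysome ratio of the tested members was 0.24 in WT (0.38 without WT replicate 2) and 0.48 in Het, beside 0.04 and 0.11 over all probes. With all mice these medians are the values of Srebf1 in WT and Elovl6 in Het, and both genes entered the test only through the Het polysome arrays, so nothing is read from them. The summed level of the adipocyte markers moved the same way between RNA kinds, from 14.4 to 14.7 in WT whole muscle and 14.3 to 14.6 in Het whole muscle, to 16.0 to 16.4 in WT polysomes and 15.6 to 16.2 in Het polysomes. That sum was carried by its brightest marker, Car3, which alone read 13.4 to 16.2 over the 12 arrays, against 6.15 to 7.57 for Plin1. Of 10 such markers 9 were tested, and Cfd (1.70), Car3 (1.53) and Fabp4 (1.34) rose in WT polysomes. Lep, a defining adipocyte gene, was not well above background on any of the 12 arrays. The summed signal of immediate early genes was also higher in WT polysomes, at 13.5 to 13.96 against 12.3 to 12.7, but only Jun (1.98) and Jund (1.97) of 10 tested genes passed, and Atf3 stood at -1.02 (limma adjusted p = 0.180). Other markers moved in WT polysomes as well: 5 of 14 skeletal muscle markers fell (Atp2a1 -3.11, Des -2.17, Mylpf -1.92, Actn3 -1.22, Acta1 -1.08), 3 of 7 red blood cell markers rose (Hbb-bt and Hba-a2 1.41 each, Hba-a1 1.24), and 2 of 9 myeloid markers rose (S100a9 1.17, Cd68 1.02). The skeletal muscle, adipocyte and immediate early calls remained without WT replicate 2, those of red blood cell and myeloid markers did not, and Lyz2 then passed downwards (-2.05). Whether RNA of other cell types or handling of the tissue had a part in the Cebpb ratio was not tested.

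**Figure D4:**
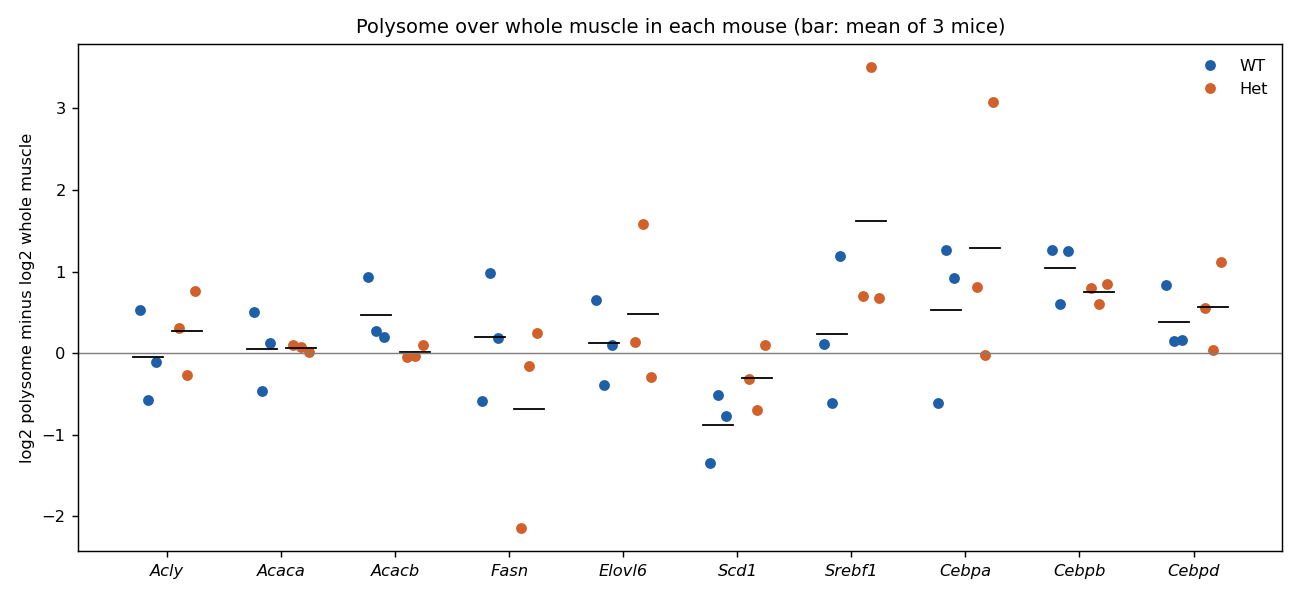
Log2 polysome minus log2 whole-muscle signal of each member in each of 3 WT and 3 Het mice, with the line at 0 marking equal signal. Cebpb lies above 0 in all 6 mice (0.60 to 1.27), Scd1 lies below 0 in 5 of 6, and the dim genes Srebf1 and Cebpa have the widest spread.

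Monosome arrays place the members between transcripts with 1 ribosome and transcripts with several. They were normalized with the other arrays as a set of 16 (20251 probes tested), and 0 probes passed in the comparison of polysomes with monosomes over the 4 mice (0% called). All 9 tested members had a positive mean ratio, with a median of 0.63 beside 0.13 over all probes. The median is the value of Elovl6, which like Srebf1 entered the test only through the Het polysome arrays, so for these 2 genes a higher polysome signal was favoured by the filter and the count and median support nothing. Of the 9, 5 had an unadjusted p under 0.05, beside 40.9% of all probes. Cebpd had polysome minus monosome ratios of 1.29 and 0.93 in the WT mice and 0.97 and 1.31 in the Het mice, 2.18-fold by the mean of 1.12 ± 0.22 (SE; adjusted p = 0.059). Cebpb had ratios of 0.73, 1.06, 0.75 and 0.68, with a mean of 0.81 (adjusted p = 0.071). Cebpb and Cebpd had higher polysome than monosome signal in 4 of 4 mice, as had Acly (0.35 to 0.75), Cebpa (0.32 to 1.96), and, with the limit just given, Srebf1 (0.23 to 1.09) and Elovl6 (0.09 to 2.01).

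Acaca, Acacb and Scd1 had at least 1 mouse below 0. The Scd1 ratio was -0.73 in WT replicate 1 and 0.95 in WT replicate 2, and -0.12 and 0.44 in the Het mice, so its sign depended on the mouse. Without WT replicate 2 the mean for Scd1 was -0.28, and Cebpd passed with 1.21 (adjusted p = 0.031), as did 19.8% of all probes.

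**Figure D5:**
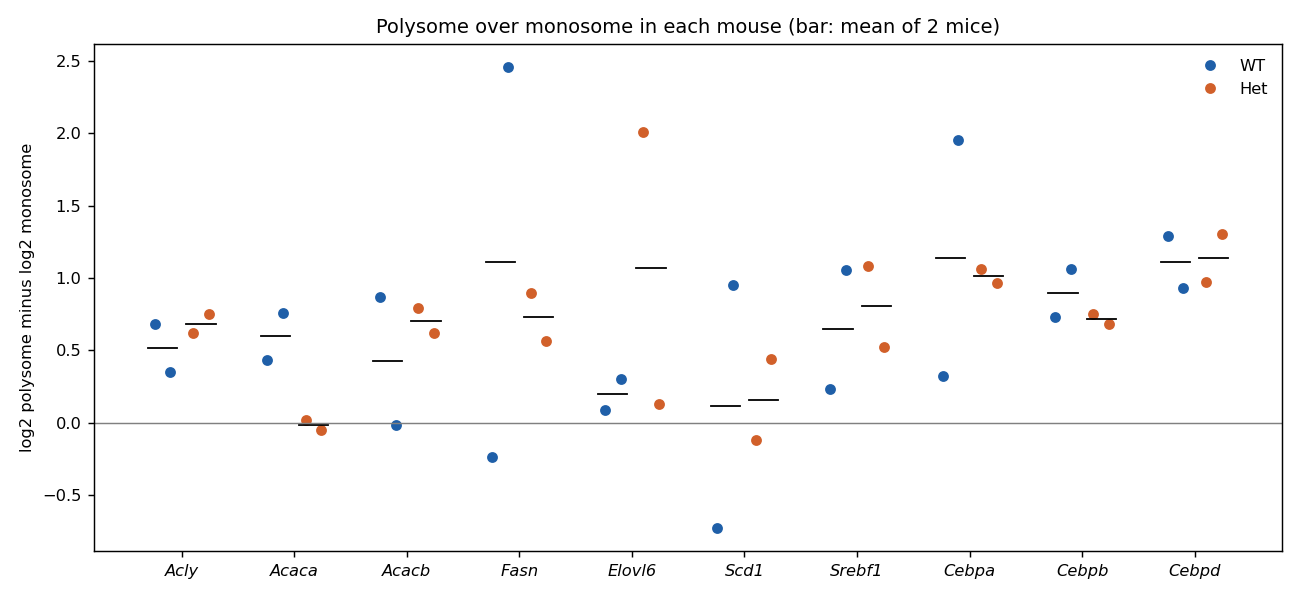
Log2 polysome minus log2 monosome signal of each member in the 2 WT and 2 Het mice that have both arrays; bars are the mean of 2 mice and the line at 0 marks equal signal. Cebpd and Cebpb stand between 0.68 and 1.31 in all 4 mice, while Scd1 has mice on both sides of 0.

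WT monosome replicate 2 was the lowest of the 4 monosome arrays for 8 of 10 members, by between 0.13 (Fasn, at background) and 1.47 (Scd1), and by more than 1 for 3. It was not the lowest for Elovl6, and for Acacb it was the highest, at 11.25 against 10.41 to 10.54. On the scale of 16 arrays, and in the order WT 1, WT 2, Het 1 and Het 3, Scd1 read 8.22, 6.03, 7.50 and 8.34, Cebpb 9.77, 8.42, 9.61 and 9.50, and Acaca 7.56, 6.13, 7.42 and 7.59. These are the 3 members with the widest gaps. The WT monosome arrays correlated at 0.78 over 20251 probes, against 0.89 to 0.99 within the other groups. No member passed for a genotype difference in monosomes, beside 28.6% of all probes (8.68% without WT replicate 2), and 0 had an unadjusted p under 0.05, beside 33.1%. Cebpd, at 8.02 and 7.76 in WT and 8.44 and 8.60 in Het, was the 1 member whose groups did not overlap (exact permutation p = 0.33, the smallest that 2 against 2 allow; limma adjusted p = 0.289), which 26.8% of all probes did upwards. Leaving out WT replicate 1 or 2 leaves 1 WT monosome array, which is assumed to vary like the other groups, and this holds for every monosome value given without either mouse. Without WT replicate 1, Acaca (1.37), Scd1 (1.89) and Cebpb (1.14) passed, as did 56% of all probes. Without WT replicate 2 their differences were -0.05, -0.31 and -0.21.

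Genes that work beside the members were taken from lists of pathway partners. 23 of 28 partners of fatty acid synthesis on the array were tested, with the background shares given above for each comparison. In polysomes 3 were higher in Het at the threshold above, beside 4.06% of all probes, and 0 lower: Acsl3, an acyl-CoA synthetase (3.81 ± 1.88 in WT, 5.57 ± 0.36 in Het, difference 1.76), Thrsp, a regulator of lipogenesis (7.82 ± 0.62 and 9.03 ± 0.09, difference 1.21), and malic enzyme Me1, a source of NADPH (9.34 ± 1.13 and 10.50 ± 0.31, difference 1.16). Their limma adjusted p-values were 0.30, 0.20 and 0.29. The median over the 23 was 0.51, beside 0.04 over all probes. With WT replicate 2 left out, only Thrsp passed (1.05), Acsl3 stood at 0.68 and Me1 at 0.51, and the median was 0.23. In monosomes Me1 (2.88) and Thrsp (1.25) were again higher in Het, with Oxsm (1.85), Ptpla (1.69) and Scd2 (1.48), beside 17.2% of all probes, and 0 were lower. Thrsp still passed there without that mouse (1.33), while Me1 (0.50), Oxsm (0.33), Ptpla (0.78) and Scd2 (-0.044) did not. The 2 comparisons use different arrays of some of the same mice. Markers of cell types moved in monosomes too, and those that passed were lower in Het. Of 9 myeloid markers these were Emr1 (-1.82) and Cd14 (-1.42). Of 7 red blood cell markers they were Slc4a1 (-1.19) and Alas2 (-1.16), and of 9 adipocyte markers Plin1 (-1.55). Their part in the values given here was not tested. In whole muscle 2 partners were lower in Het, Acsl5 (-1.83) and Hsd17b12 (-1.46), and 0 higher. In loading only Tecr, which acts in chain elongation, passed (1.13), and the median was 0.57 beside 0.15. Both whole-muscle calls remained without that mouse, Tecr did not pass (1.27), and the loading median was 0.10.

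Of the lipogenic regulators, 20 of 21 were tested. In whole muscle and in polysomes 0 passed, with medians of 0.07 and -0.10 (0.11 and 0.12 without WT replicate 2), and in loading Rxra passed downwards (-1.48). In monosomes Insig2 (3.99) and Mbtps2 (1.76), which act on SREBP processing, were higher in Het and Rxra (-1.78), Srebf2 (-1.53) and Prkab1 (-1.51) lower. The WT mean of Insig2 there had an SD of 4.95 over 2 arrays. Leaving out WT replicate 2, Rxra passed in loading (-1.02) and, with Srebf2 (-1.90), in monosomes (-1.12), while Insig2 (0.49), Mbtps2 (0.66) and Prkab1 (-1.13) did not. Triacylglycerol synthesis had 10 of 14 genes tested: Lpin1, which makes diacylglycerol, was higher in Het polysomes (1.02) and in loading (1.59), Gpam was higher in loading (1.10), and Dgat1 was lower in monosomes (-1.21). Of these calls all but that of Dgat1 (-0.77) remained without WT replicate 2. In WT mice Lpin1 was 2.64 lower on polysomes than in whole muscle on the log2 scale.

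In cholesterol synthesis, 18 of 22 genes were tested and Hsd17b7 was the 1 gene that passed, in polysomes (1.04), loading (1.29) and monosomes (1.12), and in none of these without WT replicate 2 (0.98, 1.19 and 1.03). The relatives of the C/EBP factors had 11 of 12 genes tested. 0 passed in whole muscle or polysomes, Trib2, whose product promotes C/EBP degradation, was lower in loading (-1.18) and in monosomes (-2.17), and Cebpg (2.50), Hlf (1.30) and Tef (1.09) were higher in monosomes. Trib2 in loading (-1.45) and Cebpg (1.54) also passed without that mouse, and Trib2 (-1.10), Hlf (0.68) and Tef (0.62) in monosomes did not. Glucocorticoid-responsive genes had 15 of 15 tested, with Sgk1 higher (1.19) and Mt1 lower (-2.36) in Het polysomes, and both passed without that mouse (Mt1 at -3.34), as did Mt2 (-4.51), and in whole muscle Mt2 (-3.69), Mt1 (-2.39) and Cdkn1a (-1.15). In monosomes Ddit4 (1.75), Klf9 (1.60), Sgk1 (1.52), Tsc22d3 (1.32) and Klf15 (1.22) were higher and Cdkn1a (-1.20) lower, and of these Ddit4 (1.18), Sgk1 (1.22) and Cdkn1a (-1.32) passed without that mouse, with Mt2 (-4.77), Mt1 (-3.27) and Per1 (1.098) added. Genes of the synthesis and regulator lists that passed only without that mouse were Scd3 (1.08) and Slc25a1 (-1.36) in whole muscle, and Fads3 (-1.18), Mlx (1.23), Mlxip (1.11), Tm7sf2 (1.14) and Dgat2 (1.30) in monosomes. Without that mouse 9.75% of all probes passed in whole muscle, 4.23% in polysomes and 14% in loading. With all mice, none of these list genes had a limma adjusted p under 0.05 for a genotype difference. The lowest was 0.057, for Cebpg in monosomes.

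Over the 12 whole-muscle and polysome arrays, the members that varied most alike were Acaca and Acly (Pearson r = 0.80) and Cebpb and Cebpd (r = 0.71), while Scd1 and Srebf1 went apart (r = -0.35). These are descriptions over 12 arrays that share mice, slides, brightness and RNA kind. The genes most like Cebpb were Tcf4 and Acaa1b (r = 0.95 each), Elk3, Nifk and Rrp1 (0.94 each). For Cebpd they were Gm1987 (0.90), Serping1 (0.89), Prdx6 (0.87), Adarb1 (0.86) and Pcsk6 (0.85). For Scd1 they were Srsf1 (0.82), Anapc15 (0.81), Dynlt1f (0.79), Gm13251 and 1700001O22Rik (0.78 each), and for Fasn, which was well above background on 6 of the 12 arrays, Pck1 (0.65) and Tepp (0.62) were the named genes among the 5 nearest probes.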

How the data were processed

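Whole-muscle, polysome and monosome RNA was labelled with Cy3 and hybridised to 1-colour Agilent arrays. The authors deposited scanner files of Agilent Feature Extraction 11.0.1.1 with the spot intensity (processed signal, background-subtracted and detrended by that software, unscaled between arrays) and 0 or 1 flags for background and outliers. They also deposited a table of log2 values, quantile-normalized per the methods, which was used as an alternative input only. Control spots and outlier spots were left out, log2 intensities were quantile-normalized over 12 arrays (16 where monosomes entered), and spots of a probe were averaged. A probe was tested where a 0.5 share or more of its spots passed the background flag on all arrays of 1 group, which left 19814 probes (20251 over 16 arrays). 51 further probes had missing values and were not tested.

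limma 3.58.1 in R 4.3.3 was fitted to 4 groups (6 for monosomes) or to the ratios of 6 mice, and p-values were adjusted by Benjamini-Hochberg across every tested probe. Exact permutation tests were 2-sided. Genotype differences were called at an absolute log2 difference above 1 and an unadjusted p under 0.05. The methods give such a threshold for polysomal RNA. They also say in general that p-values of multiple tests were corrected by Benjamini-Hochberg, not whether this threshold was, and use other rules elsewhere (a false discovery rate for muscle arrays, a stricter fold in a legend). Reading p as unadjusted, and using the threshold for every genotype comparison, were choices made here. Ratios within mice were called at an absolute mean above 1 and an adjusted p under 0.05. Same-numbered arrays of a genotype were taken as 1 mouse from the series' design text. Their deviations from the group means correlated at 0.059 to 0.49. Across genotypes the same numbers correlated between -0.33 and 0.45, so WT and Het were not paired. The fits were tested on simulated data with known changes. Alternatives covered the scaling, background correction, input table, filters, probe choice, slide, brightness, pairing, test and each mouse left out.

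All 10 members were named, each by its brightest tested probe. From the pathway lists, genes past the threshold were named, up to 4 a list by size (further ones, Thrsp, Prkab1, Klf15, Cdkn1a and Acta1, were named after their values were seen, as were Atf3 and genes that passed only without WT replicate 2), and the 5 genes most correlated with Fasn, Scd1, Cebpb and Cebpd. The members, lists and tests were chosen with earlier results of these data known. The number of arrays limits the precision. Sequences and mm9 coordinates are those of the array files, in which the exon of a probe is not given.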

Additional observations from a re-analysis of the deposited data

How the results depend on the processing

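Of 1131 values of single members under an alternative, 995 kept their direction and their side of the threshold, 9 lost the call, 22 gained it and 105 turned sign. The cause was not tested. Ratios within a slide set arrays of different mice against each other, since no mouse had its whole-muscle and polysome arrays on the same slide. The share of all probes called moved from 1.68% to 15.3% for loading, 0.273% to 9.75% for whole muscle, 0.843% to 10.4% for polysomes and 2.01% to 56% for monosomes, and from 0% to 20%, 10.3% and 36.5% for polysomes against whole muscle in WT, in Het, and against monosomes. Over the 12 arrays, dim probes and low brightness limit what can be said of Fasn, Elovl6, Srebf1 and Cebpa.

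The number of members called between genotypes was 0 in loading under every alternative. It was 0 in whole muscle, with 0 to 1 when a mouse was left out (Cebpa, -1.74), and 0 in polysomes, with 0 to 1 (Scd1, 1.10). In monosomes it was 1 within slide 1 (Elovl6, -2.63, beside 2.01% of all probes) and 2 within slide 2 (Acaca, 1.46; Scd1, 2.31, beside 53.8%), where each genotype has 1 monosome array that is assumed to vary like the other groups, and 0 to 3 when a mouse was left out (Acaca, Scd1 and Cebpb without WT replicate 1, and Elovl6, -1.97, without Het replicate 3). With the replicate number or the mouse as a block it was 0 in whole muscle, polysomes and monosomes. Without the pairing of arrays of a mouse (no replicate block) it was 0 in loading, 1 in WT and 0 in Het for polysomes against whole muscle, and 1 for polysomes against monosomes, where the paired fit called 0 (Cebpd, 1.09, adjusted p = 0.013).

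For polysomes against whole muscle in WT the count, 1 (Cebpb), was 0 with 75th percentile scaling (0.97), normexp background correction (0.98), the authors' table (0.96), within slide 1 (0.85) and slide 2 (1.34), where 0% of all probes passed, and with brightness as a term (1.07, adjusted p = 0.070), and 0 to 1 when a mouse was left out (0 without WT replicate 1, WT replicate 3 or Het replicate 1, the last through the shared spread with adjusted p = 0.053). Cebpb stayed above 0 in 18 of 18 alternatives, between 0.85 and 1.34. For Het the count was 0 under every alternative. For polysomes against monosomes the count, 0, became 1 (Cebpd) with 75th percentile scaling (1.25), normexp (1.01), the authors' table (1.03), probes above background on all arrays (1.12) and slide as a term (1.21, which for these ratios is the same fit as leaving out WT replicate 2), 4 within slide 2 (Acly, 1.11; Srebf1, 1.51; Cebpb, 1.20; Cebpd, 1.32), and 0 to 2 when a mouse was left out (Cebpd and, without WT replicate 1, Cebpa, 1.49).

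Signs turned as follows for Het against WT. In loading: within slide 1, Scd1 -0.070, Elovl6 -0.16, Cebpb 0.30; within slide 2, Acaca -0.063, Acly -0.059, Cebpd -0.61; with brightness, Acaca -0.010, Srebf1 -1.43, Elovl6 -0.50; with the mean of probes, Acaca -0.081. In whole muscle: within slide 1, Acaca -0.077; within slide 2, Acaca -0.093, Scd1 -0.48, Acly 0.018, Cebpd 0.35; with brightness, Acly 0.33, Srebf1 0.14, Elovl6 0.48; with the mean of probes, Acacb -0.059; with 75th percentile scaling, Elovl6 0.13, Cebpd 0.051; with the authors' table, Acaca -0.057, Elovl6 0.052. In polysomes: within slide 1, Acaca -0.0080, Elovl6 -0.16, Cebpb 0.37; within slide 2, Acaca -0.16, Acacb 0.076, Acly -0.041, Srebf1 -0.056, Cebpd -0.26; with brightness, Acaca -0.058, Acacb 0.11, Srebf1 -0.063; with the mean of probes, Acaca -0.0049; with 75th percentile scaling, Acacb 0.031, Cebpb 0.028; with the authors' table, Acacb 0.00045; with normexp, Acacb 0.00013; with slide as a term, Acacb 0.014. In monosomes: within slide 1, Acaca -0.14, Scd1 -0.73, Acly -0.46, Srebf1 -0.55, Cebpb -0.15; within slide 2, Elovl6 0.81, Cebpa 0.84; with either replicate block, Cebpa 0.047.

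They turned for polysomes against whole muscle in WT within slide 1 (Acaca -0.37, Cebpd -0.47) and slide 2 (Acly 0.47), and in Het within slide 1 (Acaca -0.30, Acacb -0.0068), within slide 2 (Acacb -0.0025, Scd1 0.87), with 75th percentile scaling (Acacb -0.31) and with brightness (Srebf1 -0.46, Elovl6 -0.16). Against monosomes they turned within slide 1 (Acaca -0.050, Scd1 -0.55), with slide as a term (Scd1 -0.28) and with brightness (Elovl6 -1.42).

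With a mouse left out, signs were mixed for these ranges. Loading had Acaca from -0.25 to 0.23, Elovl6 from -0.20 to 0.74, Cebpa from -0.13 to 1.42 and Cebpd from -0.084 to 0.45. Whole muscle had Acaca from -0.12 to 0.18, Scd1 from -0.28 to 0.53, Acly from -0.32 to 0.13, Elovl6 from -0.38 to 0.19 and Cebpd from -0.20 to 0.31. Polysomes had Acaca from -0.30 to 0.25, Acacb from -0.060 to 0.026, Acly from -0.26 to 0.60, Elovl6 from -0.0048 to 0.58, Cebpb from -0.37 to 0.15 and Cebpd from -0.083 to 0.45. Monosomes had Acaca from -0.050 to 1.37, Acacb from -0.78 to 0.027, Scd1 from -0.31 to 1.89, Acly from -0.37 to 1.02, Srebf1 from -0.28 to 0.93, Elovl6 from -1.97 to 0.16, Cebpa from -0.99 to 0.71 and Cebpb from -0.21 to 1.14. Polysomes against whole muscle in WT had Acaca from -0.17 to 0.31, Acly from -0.34 to 0.22, Srebf1 from -0.24 to 0.66 and Elovl6 from -0.14 to 0.38. The same in Het had Acacb from -0.039 to 0.038 and Elovl6 from -0.077 to 0.86. Polysomes against monosomes had Scd1 from -0.28 to 0.56.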
